A study of Homo sapiens with 2 samples.

Results

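The genes described here encode the proteins that load, start and run the DNA replication machinery, from the origin recognition complex to the ligase that joins Okazaki fragments. They were chosen as every probe set, among those whose platform annotation gives exactly 1 gene symbol, whose symbol is 1 of 42 listed replication genes. All 42 genes had at least 1 probe set, and together they had 63, of 16716 genes and 29493 probe sets with 1 symbol in the table. The samples are 2 replicates of 1 human lymphoblastoid cell line, B cells that Epstein-Barr virus keeps dividing in culture, grown in RPMI1640 with fetal calf serum, antibiotics and L-glutamine. The titles spell the line GM06690 and the growth protocol GM06990. There is no second condition, the line comes from 1 donor, and the labels give neither the cell cycle phase nor whether the replicates came from separate cultures, so their spread may be technical. Total RNA was labelled with biotin and hybridised to 1 Affymetrix Human Genome U133 Plus 2.0 array per replicate.

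Replication starts at origins, which the origin recognition complex (ORC) marks. CDC6 and CDT1 then load the ring-shaped MCM2-7 helicase there, and geminin blocks CDT1 after the start of S phase so that no origin is loaded again. CDC45 and the GINS complex join MCM2-7 to form the active helicase, and polymerases alpha, delta and epsilon copy the strands behind it with replication protein A (RPA), the clamp PCNA, its loader RFC, and the flap nuclease FEN1 and DNA ligase I. Many of these genes are known targets of the E2F transcription factors, which the RB protein restrains in resting cells, so cycling cells usually carry more of their messenger RNA.

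All 42 genes were above background on both arrays, against 52.2% of all genes measured. The background level of an array was the 95th percentile of the signals of 102 genes known mainly from other tissues, such as liver, brain and muscle. It was 5.66 in replicate 1 and 5.67 in replicate 2. By construction a few of the 102 lie above it, and the 5 that did so on both arrays included MBP (10.30 and 10.36) and SFTPB (6.69 and 6.79). A gene was represented by its brightest probe set, and all signals are log2 of the authors' RMA intensities. The count was also 42 with the level at the 75th percentile, which 62.8% of all genes passed, and at the 99th, which 45.3% passed. Over the 42 genes the median signal was 10.23, and the lowest and highest were 7.51 and 13.21. Over all genes the median was 6.10. Of the 42 genes 33 lay above the upper quartile of all genes (9.13), which 25% of genes do by construction. Probe sets differ in affinity, so these signals are not transcript numbers and the order of the genes is not an order of abundance. In RNA of a whole culture, fewer cells in S phase and less RNA per cell cannot be told apart.

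The promoters of these genes were examined for letters that the selection rule did not use. Many of these genes are known E2F targets, so a raised share of E2F-type words could be foreseen from the gene list. RefSeq windows (GRCh38.p14) from 250 bases before to 50 bases after the annotated start were available for 36 of the 42 genes, and MCM4, MCM5, GINS4, POLD3, RPA2 and RPA3 had no entry. Where RefSeq lists several starts, the first entry was taken. This applied to 7 of the genes: CDC45, GMNN, MCM7, ORC4, PCNA, POLD1 and PRIM2. The E2F-type words TTTCGCGC, TTTGGCGC, TTTCCCGC and TTTGCCGC were searched on both strands, and a word on one strand may overlap a word on the other. At least 1 of them occurred in 18 of 36 promoters (50%), against 3.33% of all 27305 promoters of this length and 5.77% of the 7313 promoters of measured genes above background. Those 7313 promoters had a median GC content of 65.0%, and the 36 promoters had 64.8%. The fourth word occurred in none of the 36. A match is a run of letters and not evidence that a factor binds there.

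The stretches below show, for each of the 18 promoters, the match nearest to the start in 28 bases of context, so that the shared core can be compared. Capitals mark the matched letters, which read as GCGCGAAA, GCGCCAAA or GCGGGAAA where the word lies on the strand opposite to the gene. Each stretch runs 5′ to 3′ on the gene's own strand (RefSeq, GRCh38.p14).
ORC3 (chr6:87590113-87590140, plus strand): gcgagggcgcGCGGGAAAtcccgagtgc
CDC6 (chr17:40287876-40287903, plus strand): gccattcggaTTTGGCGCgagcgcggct
CDT1 (chr16:88803744-88803771, plus strand): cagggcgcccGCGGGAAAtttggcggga
MCM2 (chr3:127598405-127598432, plus strand): gaaccactTTTCGCGCGAAAcctggttg
MCM3 (chr6:52284729-52284756, minus strand): gttcggaagtTTTCGCGCcggggtggag
MCM6 (chr2:135876514-135876541, minus strand): tggtcaggTTTGGCGCGAAAtctccagc
MCM7 (chr7:100101389-100101416, minus strand): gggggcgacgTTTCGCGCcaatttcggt
MCM8 (chr20:5950668-5950695, plus strand): gatcactgaaGCGCCAAAaaagaattta
GINS1 (chr20:25407668-25407695, plus strand): gctttgttcgGCGCCAAAgcgcggagcg
GINS2 (chr16:85688968-85688995, minus strand): tctcgccgtgGCGGGAAAacggcggccg
GINS3 (chr16:58392456-58392483, plus strand): gtccccgggcGCGGGAAAcgagtttcaa
POLA1 (chrX:24693771-24693798, plus strand): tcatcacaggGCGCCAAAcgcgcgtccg
POLA2 (chr11:65261899-65261926, plus strand): tggctcccggTTTCGCGCatgcgtgcac
POLE (chr12:132687343-132687370, minus strand): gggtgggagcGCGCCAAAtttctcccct
POLE2 (chr14:49688202-49688229, minus strand): tgcggcggtgGCGCCAAAtcgcaaatat
PCNA (chr20:5126664-5126691, minus strand): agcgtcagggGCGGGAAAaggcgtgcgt
RFC3 (chr13:33818084-33818111, plus strand): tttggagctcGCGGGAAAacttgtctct
LIG1 (chr19:48170441-48170468, minus strand): cttcacccctTTTCCCGCcctcctccca

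Every one of the 4 MCM2-7 genes with a promoter entry held at least 2 matches. MCM2, MCM3 and MCM7 held 2 each and MCM6 held 4, and no other gene of the 36 held more than 1. In all 27305 promoters 42 (0.154%) held 2 or more, and among the 7313 of measured genes above background 24 did (0.328%). In MCM2 and MCM6 words on both strands overlapped to make a run of 12 matched letters. Words on both strands overlapped, by any number of letters, in 6 of all 27305 promoters, these 2 included. MCM6 carried the run of 12 in both of its pairs, with identical matched letters 62 bases apart. By role, matches were found in 3 of 4 promoters of the CDC45 and GINS genes, 2 of 3 of the licensing factors, 2 of 4 of polymerase alpha-primase, 2 of 2 of polymerase epsilon and the 1 of PCNA. They were found in 1 of 6 promoters of ORC, 1 of 5 of the clamp loader and 1 of 2 of the Okazaki maturation genes. Of the further MCM genes 1 of 2 held a match, and 0 of 2 of polymerase delta and 0 of the 1 of RPA did. These counts rest on exact whole words at 1 start per gene. With the last 7 letters of each word 25 of the 36 promoters held a match (13.1% of all promoters). With any listed start 19 did (3.99%). Neither setting, chosen after seeing the data, was split by role.

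The bases before the start are given in full for MCM6, MCM7 and PCNA, since they show where the matches (capitals) lie within a promoter. Each runs from base -250 to base -1 on the gene's own strand (RefSeq, GRCh38.p14).
MCM6 (chr2:135876444-135876693, minus strand): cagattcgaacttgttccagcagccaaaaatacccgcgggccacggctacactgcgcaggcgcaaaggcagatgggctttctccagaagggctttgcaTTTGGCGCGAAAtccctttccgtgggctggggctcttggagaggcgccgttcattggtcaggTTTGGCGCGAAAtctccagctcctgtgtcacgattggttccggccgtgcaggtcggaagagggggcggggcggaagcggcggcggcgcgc
MCM7 (chr7:100101398-100101647, minus strand): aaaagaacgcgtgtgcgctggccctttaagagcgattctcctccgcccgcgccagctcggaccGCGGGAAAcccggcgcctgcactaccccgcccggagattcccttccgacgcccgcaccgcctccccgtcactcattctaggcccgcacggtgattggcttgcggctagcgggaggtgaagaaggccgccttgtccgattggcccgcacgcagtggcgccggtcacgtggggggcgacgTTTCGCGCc
PCNA (chr20:5126623-5126872, minus strand): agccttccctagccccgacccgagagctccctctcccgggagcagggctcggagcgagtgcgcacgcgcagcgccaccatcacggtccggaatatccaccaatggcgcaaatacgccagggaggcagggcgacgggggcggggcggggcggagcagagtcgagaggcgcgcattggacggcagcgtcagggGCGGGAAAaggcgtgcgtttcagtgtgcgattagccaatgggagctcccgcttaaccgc

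In MCM6 the pairs began at bases -152 and -90 from the start, in MCM7 the words began at -187 and -9, and in PCNA the word began at -59. Of the 24 matches in the 36 promoters, 8 (33.3%) began in the last 50 bases before the start and 5 (20.8%) after it. Of the 954 matches in all promoters 19.0% and 13.2% did so. The first 50 bases of the window held 0 of 24 and 14.4% of the 954.

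**Figure D1:**
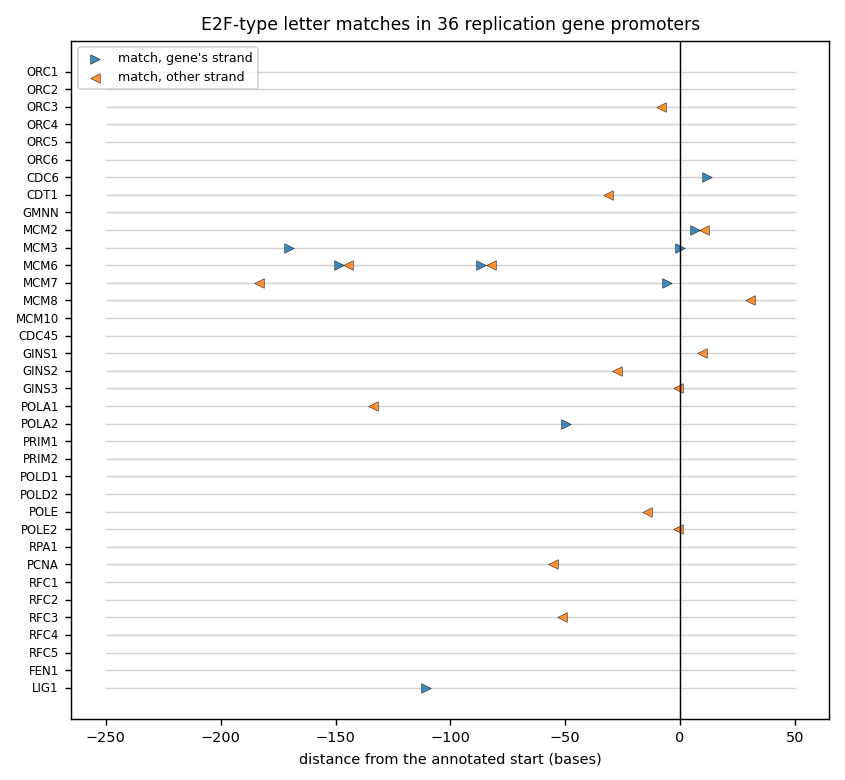
Positions of the E2F-type letter matches in the 36 promoters, as distance in bases of the centre of each match from the annotated start (vertical line). Each row is a gene, and triangles point along the strand that holds the word. MCM2, MCM3, MCM6 and MCM7 are the rows with more than 1 match.

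The CCAAT letters, the core of the box bound by the NF-Y factor, occurred on either strand in 21 of 36 promoters (58.3%), against 35.7% of all promoters and 38.5% of those of measured genes above background. Of the 36 promoters 11 held both kinds of match, among them CDC6, MCM3, MCM6, MCM7, POLA1, POLE and PCNA. The PCNA window printed above held 3 CCAAT matches. Those with neither were ORC4, ORC5, GMNN, PRIM2, POLD1, RFC2, RFC4 and FEN1. Of these, ORC4, GMNN, PRIM2 and POLD1 have further listed starts, whose windows are not counted here. The GC box letters GGGCGG were found in 72.2% of the 36, close to the 70.7% among measured genes above background. The TATA letters TATAAA were found in GINS3 alone (2.78%), against 5.42% of the promoters of measured genes above background.

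Of the 36 genes 9 (25%) started head to head with a neighbour, that is within 1000 bases of a start on the opposite strand that runs away from them. The share was 25.9% among measured genes above background, so it is near that of expressed genes. In all 9 the neighbour was protein-coding, and 15.2% of the genes above background had a protein-coding neighbour of this kind. ORC1 lay 179 bases from PRPF38A, ORC3 148 bases from RARS2, MCM8 119 bases from TRMT6, MCM7 246 bases from AP4M1 and POLE 245 bases from PXMP2. ORC6 lay 481 bases from VPS35, PCNA 386 from CDS2, FEN1 312 from TMEM258 and RPA1 103 from SMYD4. All 8 neighbours that were measured were above background, against 79.1% of the measured neighbours of genes above background. The latter share was not limited to protein-coding neighbours, so the sets are not alike. The ORC1 neighbour PRPF38A, a splicing factor gene, had signals of 10.44 and 10.53 on the arrays, and AP4M1, next to MCM7, had 7.03 and 7.22.

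All 6 subunits of the origin recognition complex were above background. ORC1, the subunit whose protein rises and falls with the cell cycle in human cells, had signals of 8.43 in replicate 1 and 8.41 in replicate 2. ORC2 had 9.13 and 9.14, and ORC3, whose promoter holds the 1 match of this complex, had 10.07 and 10.06. ORC4 had 10.27 and 10.28 and ORC5 had 10.38 and 10.37. ORC6 had 10.52 and 10.58, by a probe set ending in _x_at, which may share probes with other sequences. Each pair of values differed by at most 0.06 on the log2 scale.

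Of the licensing factors, CDT1, the loader of MCM2-7, lay nearest to background among the 42 genes. By its 1 probe set in the table it had signals of 7.56 in replicate 1 and 7.45 in replicate 2. These were 3.72 and 3.43 times the background level of their array. CDC6, the ATPase that works with CDT1, had 8.51 and 8.47 by one probe set and 8.40 and 8.36 by the other, so its probe sets lay close together. GMNN, which encodes geminin, the inhibitor of CDT1, had 11.44 on both arrays. The probe sets of these 3 genes differ in affinity, so the signals do not give the ratio of inhibitor to loader.

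The 6 genes of the MCM2-7 helicase lay between 10.83 and 12.10 as means of both arrays. MCM2 had 11.46 in replicate 1 and 11.45 in replicate 2, and MCM3 had 10.86 and 10.79. MCM4 had 11.03 and 11.00 and MCM5 had 11.04 and 11.00. MCM6, the gene with 4 promoter matches, had 12.08 and 12.13, and MCM7 had 10.98 and 11.12. The MCM7 pair was the one of the 42 that was over 0.1 higher in replicate 2, and its other probe set gave 10.98 and 10.95. All 4 probe sets of MCM4 and both of MCM5 were above background, and MCM2, MCM3 and MCM6 rest on 1 probe set each.

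MCM8, a helicase subunit used in repair by homologous recombination, had 9.23 and 9.20. MCM10, which helps to activate the loaded helicase and is not an MCM2-7 subunit, had 8.71 and 8.78 by its brightest probe set, and all 3 of its probe sets were above background. The active helicase further needs CDC45, which had 9.56 on both arrays. Of the GINS subunits, GINS1 had 10.33 and 10.40, GINS2 had 11.18 on both arrays, GINS3 had 8.69 and 8.67 and GINS4 had 9.71 and 9.70.

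**Figure D2:**
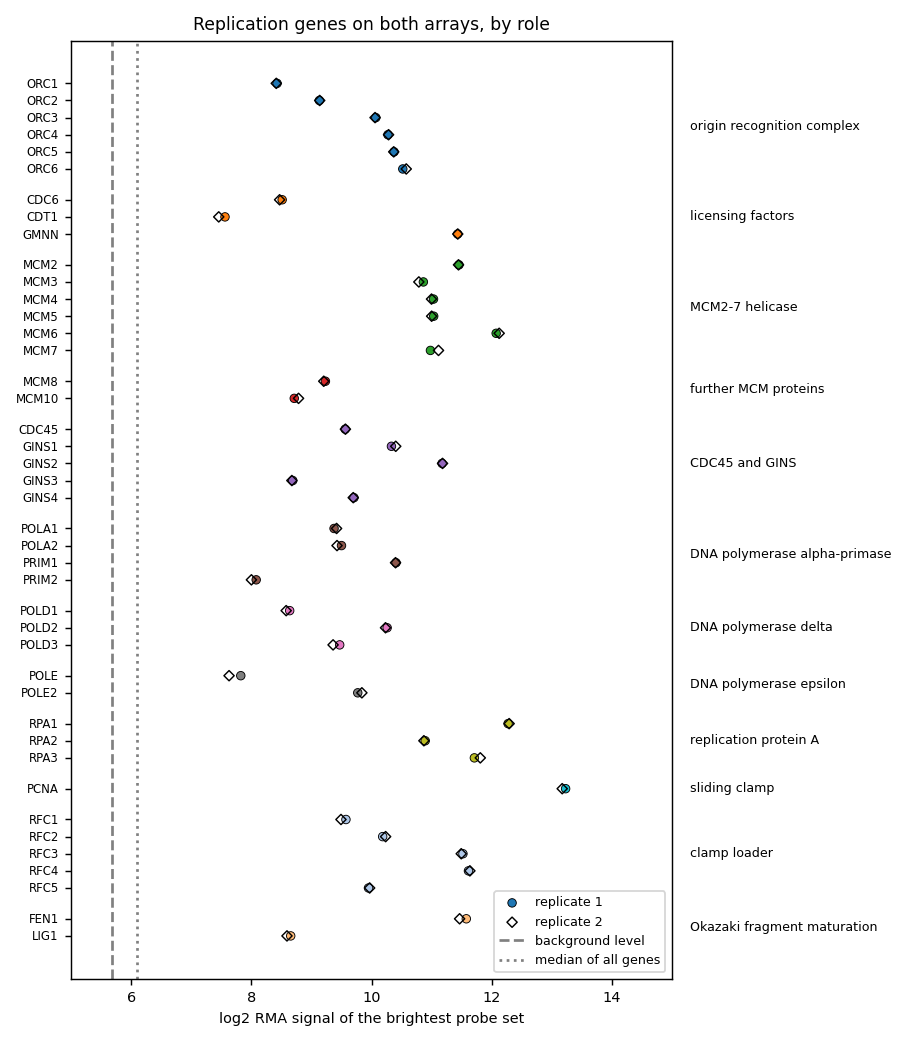
Log2 RMA signal of the brightest probe set of each of the 42 genes in replicate 1 (circles) and replicate 2 (diamonds), grouped by role. The dashed line is the mean background level of the arrays and the dotted line the median of all genes (6.10). All 42 genes lie right of both lines, from CDT1 at 7.51 to PCNA at 13.21.

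The polymerase alpha-primase complex, which starts each strand with an RNA and DNA primer, was above background in all 4 subunits. POLA1, the catalytic subunit, had 9.38 and 9.42 and POLA2, its regulatory subunit, had 9.50 and 9.43. The small primase subunit PRIM1 had 10.41 and 10.40. The large primase subunit PRIM2 averaged 8.04 ± 0.06 (SD, n = 2) by the 1 probe set that names it alone. A further 4 probe sets name PRIM2 together with PRIM2BP, a related sequence, and were left out. Among these, 1554885_a_at (7.19 and 7.41) and 215708_s_at (7.47 and 7.40) were above background, while 1554884_at (3.69 on both arrays) and 215709_at (3.88 and 4.07) were not.

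The catalytic subunits of polymerases delta and epsilon both had signals below the upper quartile of all genes. POLD1, the catalytic subunit of polymerase delta, had 8.64 and 8.58, and POLE, that of polymerase epsilon, had 7.82 and 7.63. The POLE pair differed by -0.20 (replicate 2 minus replicate 1), the largest difference among the 42 genes. The accessory subunits had 10.26 and 10.23 (POLD2), 9.47 and 9.36 (POLD3) and 9.77 and 9.84 (POLE2). Since these are different probe sets, the values do not show that a catalytic subunit had fewer transcripts than its partners.

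RPA, which coats single-stranded DNA, had signals of 12.28 and 12.29 (RPA1), 10.89 and 10.87 (RPA2) and 11.71 and 11.81 (RPA3). PCNA, the sliding clamp that holds the polymerases on DNA, had 13.23 and 13.18 and lay furthest above background among the 42. Its intensities were 9636 in replicate 1 and 9265 in replicate 2, which were 190.3 and 181 times the background level of their array. The 5 clamp loader subunits were all above background, with RFC1, the large subunit, at 9.57 and 9.49 and RFC4 at 11.62 and 11.64. The RFC1 probe set, like that of ORC6, ends in _x_at and may share probes with other sequences. RFC2 had 10.19 and 10.23, RFC3 had 11.52 and 11.50 and RFC5 had 9.95 and 9.97. FEN1, which cuts the flaps between Okazaki fragments, had 11.58 and 11.47, and LIG1, the ligase that seals them, had 8.65 and 8.59.

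Of the 63 probe sets 59 were above background on both arrays, against 47.6% of all probe sets with 1 symbol. Of the 15 genes with more than 1 probe set, 11 had every probe set above background (73.3%), against 33.1% of all genes with more than 1. Those 7350 genes include 2550 with no probe set above background, which was so for 0 of the 15, so the shares are not over like sets. Of the 7350, 2431 had every probe set above and 2369 only some. In the other 4 of the 15 genes a single probe set fell short. The RFC1 probe set 208133_at had 3.52 and 3.67, while the other RFC1 probe sets had means of 9.53 and 9.25. The ORC5 probe set 211213_at had 4.66 and 4.76. The GINS2 probe set 1557595_at (5.46 and 5.77) and the GINS4 probe set 1554356_at (5.25 and 5.82) exceeded the level in replicate 2 alone. In ORC4 and MCM4, where every probe set was above background, the means ran from 7.75 to 10.28 and from 8.54 to 11.02. In CDC6, MCM7 and FEN1 the probe sets lay within 1.08-fold, 1.06-fold and 1.18-fold of each other. Which transcripts or ends of transcripts the dim probe sets detect was not tested.

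**Figure D3:**
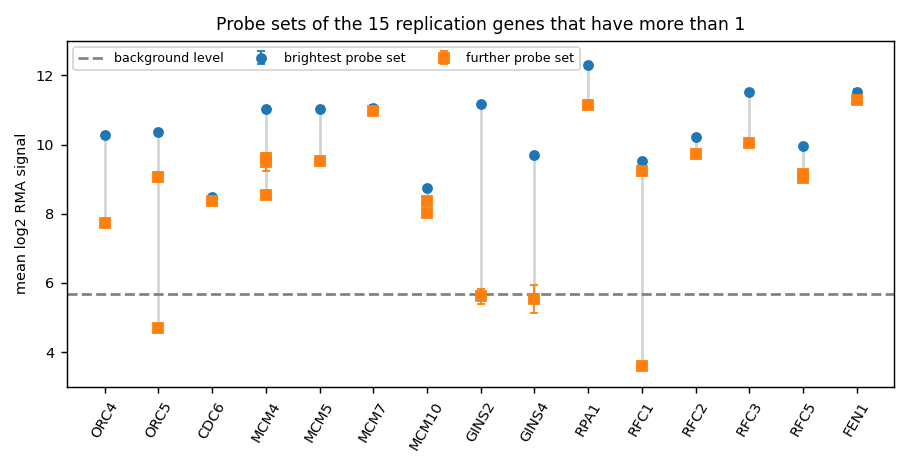
Mean log2 RMA signal of each probe set of the 15 genes with more than 1, with the SD of both arrays as bars (n = 2). Circles are the brightest probe set of a gene, squares the others, and the dashed line the background level. ORC5, GINS2, GINS4 and RFC1 each have 1 square below the line.

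The arrays gave nearly the same signals for these genes. Over the 42 genes the median SD of the pair was 0.03 and the highest 0.14 (POLE), against medians of 0.07 over all genes and 0.05 over genes above background. A log2 difference over 0.58, about 1.5-fold, was found for none of the 42, against 1.31% of all genes and 0.321% of those above background. A difference over 0.3 was found for none of them either, against 11.6% and 4.89%. The 42 genes were also brighter, with a median signal of 10.23 against 9.01 over genes above background. No comparison at like signal was made, for these shares or for the SDs. The median difference, replicate 2 minus replicate 1, was -0.01 over the 42 genes, turning to 0.0035 after a second quantile normalization and 0.0028 after a loess curve was removed, and -0.01 over all genes. Of the 42 genes 25 (59.5%) were higher in replicate 1, against 57.0% of all genes above background. The 5 genes over 0.1 were POLE, FEN1 (-0.11), POLD3 (-0.11), CDT1 (-0.10) and MCM7 (0.13). Among all 63 probe sets 3 differed by over 0.3, a dimmer MCM4 probe set (222036_s_at, -0.37) and the GINS2 and GINS4 probe sets named above as close to background. In 10 of the 15 genes with more than 1 probe set, the probe sets differed between the arrays in both directions. With 1 array on each side no test was run.

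**Figure D4:**
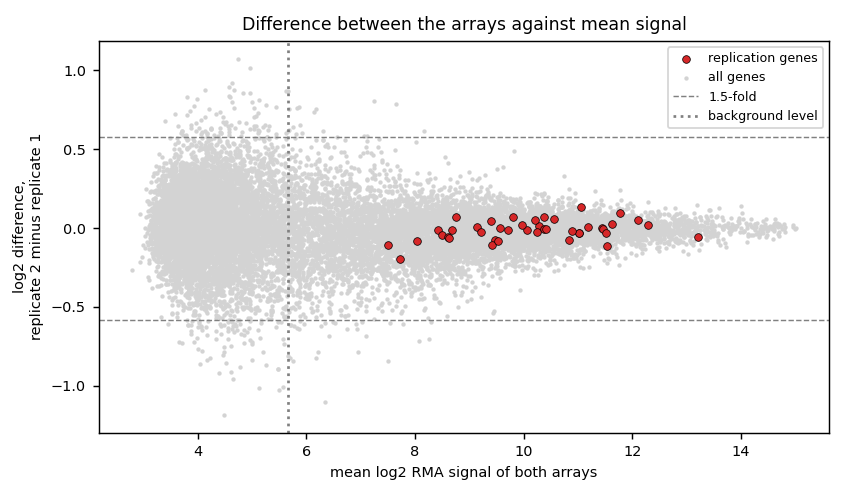
Log2 difference between the arrays (replicate 2 minus replicate 1) against the mean log2 RMA signal, for the 42 replication genes (large points) and all 16716 genes (small points). Dashed lines mark a difference of 0.58 in either direction and the dotted line the background level. The 42 genes lie between -0.20 and 0.13.

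Genes that work beside these proteins were also mostly above background, with 80 of 90 measured partner genes over 8 lists (88.9%) and a median signal of 9.73, against 52.2% and a median of 6.10 over all genes. Of the origin firing and licensing partners 8 of 10 were above, among them CDC7, the kinase that triggers MCM2-7 (9.18 and 9.30), and its activator DBF4 (11.19 on both arrays). DBF4B, a second activator of CDC7 (5.44 and 5.40), and MTBP, a partner of TICRR in origin firing (5.25 and 5.46), were not. Of the accessory subunits and paralogues 7 of 9 were above, with POLD4 at 8.91 and 8.78, POLE3 at 11.09 and 11.09 and POLE4 at 9.77 and 9.65. The exceptions were RPA4, an RPA2 relative (3.78 and 3.66), and MCMDC2, an MCM-like gene of meiosis in mice (3.38 and 3.48).

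Among fork protection and clamp unloading genes 14 of 16 were above background, including TIMELESS (9.95 and 9.83) and TIPIN (10.30 and 10.27), which travel with the fork. Of their probe sets, 1 of 2 of TIMELESS and the 1 of TIPIN were above. Their checkpoint partner CLSPN, which encodes claspin, was not (5.46 and 5.58), nor was the fork remodeller ZRANB3 (4.13 and 4.24). All 7 genes of flap and RNA primer removal were above, such as DNA2 (8.61 on both arrays), EXO1 (9.29 and 9.26) and RNASEH2A (9.85 and 9.89). Of 12 genes of deoxynucleotide supply 11 were, such as the ribonucleotide reductase subunits RRM1 (12.10 and 12.08) and RRM2 (13.80 and 13.79). RRM2B, the p53-induced subunit, had 8.66 and 8.53. The exception was TK2, the mitochondrial thymidine kinase (5.35 and 5.01).

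Chromatin assembly behind the fork was represented by 10 genes, of which 9 were above background. CHAF1A averaged 10.04 ± 0.05 (SD, n = 2), CHAF1B had 8.10 and 8.08 and the histone chaperone ASF1A had 10.03 and 10.06, while TONSL, which acts on newly copied chromatin, had 5.37 and 5.43. All 11 genes for turnover of licensing factors were above, such as SKP2, the F-box protein that marks CDT1 for degradation (10.01 and 10.07), CKS1B (11.56 and 11.67) and CUL4A (9.94 and 9.70). Of the E2F, RB and DREAM genes 13 of 15 were above. E2F1 had 6.56 and 6.46, E2F3 had 10.02 and 9.88, and E2F2 had 5.05 and 4.76 and was not above. LIN9, a DREAM complex subunit, had 3.64 and 3.62 and was not above either. Promoters of the partner genes held an E2F-type match in 17 of 86 cases (19.8%), against 3.33% of all promoters and 5.77% of those of measured genes above background.

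Markers were checked against the B-cell label. All 8 measured B-cell markers were above background by their brightest probe set, such as MS4A1 (13.12 and 13.26), CD79A (11.32 and 11.27) and CD79B (9.62 and 9.55). For MS4A1, CD79A and HLA-DRA 2 of 2 probe sets were above background. For CD22 and CD74 2 of 3 were, for PAX5 and BLK 1 of 2, and for CD79B 1 of 3. Of 27 markers of T cells, NK cells, myeloid cells, fibroblasts and epithelium, 1 was above, CDH2, which encodes N-cadherin (10.13 and 10.10). The first markers of each list were CD3D (5.09 and 4.80), CD3E (4.51 and 4.46) and CD3G (4.56 and 4.43) for T cells, NCAM1 (4.79 and 4.89), KLRD1 (4.19 and 4.07) and NKG7 (4.13 and 4.23) for NK cells, and CD14 (3.82 and 3.72), LYZ (3.72 on both arrays) and CSF1R (3.85 on both arrays) for myeloid cells. The fibroblast genes COL1A2 (4.98 and 5.09), COL3A1 (3.75 and 3.99) and PDGFRA (4.68 ± 0.45, SD, n = 2) were also below the level.

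**Figure D5:**
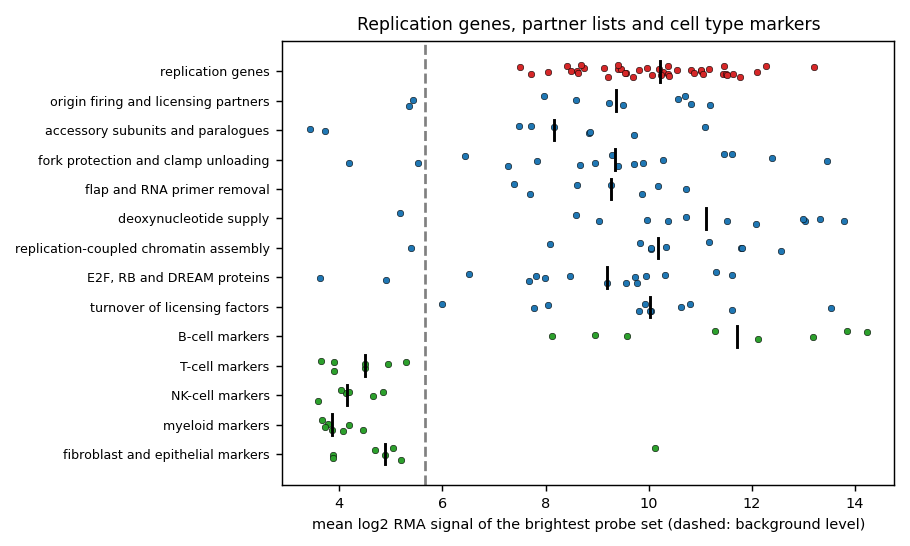
Mean log2 RMA signal of both arrays for the brightest probe set of each gene: the 42 replication genes (top row), 8 partner lists and 5 lists of cell type markers. Each point is a gene, vertical bars are list medians and the dashed line is the background level. The 42 replication genes all lie right of the line, and 80 of 90 partner genes do.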

How the data were processed

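Expression was measured in 2 replicates of 1 lymphoblastoid line with 1 array each. The deposited values are probe set intensities made with RMA (background correction, quantile normalization and probe summary), per the submitters' processing notes, with no version given in the sources used here. They run from 6.29 to 33093 and so are linear, and log2 was taken here with Python 3.11.15 and pandas 2.3.3. The table holds 36289 probe sets. Of these, 29493 have 1 gene symbol in the platform annotation, 1407 have several and 5389 have none, the last 2 kinds naming no gene. The table was not compared with the full content of the array. Shares of genes measured, genes called not measured and numbers of probe sets per gene therefore refer to this table alone. Symbols were updated by Entrez ID from RefSeq (GRCh38.p14), with 29461 matched. The number of arrays limits the precision.

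A gene was represented by its brightest probe set, and was above background when it exceeded, on both arrays, the 95th percentile of 102 genes known mainly from other tissues, a few of which this line also showed above the level. The functions for these calls were tested on simulated data. With 1 group no test was possible, so counts and medians stand beside those of all genes. The replication genes and all lists were chosen with earlier results of these data known. The text names all 42 replication genes, the first measured genes of each other list in the order written, and the partner genes not above background. Others were named after their values were seen.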

Additional observations from a re-analysis of the deposited data

How the results depend on the processing

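The count of 42 replication genes above background was the same with the level at the 75th or 99th percentile, with olfactory receptor genes as reference, with the mean of all probe sets of a gene, and without either replicate. The share of all genes above background ranged from 45.3% to 62.8% over these settings, so that share moved while the count of 42 did not. Without probe sets ending in _x_at or _s_at it was 29 of the 30 genes still measured, against 46.1% of all genes. ORC3, ORC6, CDT1, GMNN, MCM2, MCM7, MCM8, CDC45, GINS3, POLA2, POLE and FEN1 had no probe set left. The exception was RFC1, whose remaining probe set was the dim one. In that setting the background level was taken from the remaining probe sets too. GINS2 was left with 1557595_at (5.46 and 5.77), which passed that level but not the main one in replicate 1 (5.66). That setting also gave a median signal of 9.77, and 2 of 4 genes with every probe set above background in place of 11 of 15; a mean over every probe set of a gene gave a median signal of 9.61. Across the settings tried, partner genes above background ranged from 77 of 90 (45.3% of all genes) to 86 of 90 (62.8% of all genes). They were 60 of 73 without _x_at and _s_at probe sets (46.1% of all genes). Leaving out a replicate gave median signals of 10.22 and 10.23. The median difference between the arrays was under 0.01 in size after a second quantile normalization and after a loess curve was removed, and its sign turned to positive in both (0.0035 and 0.0028). The promoter count of 18 of 36 was 25 with the last 7 letters of each E2F word (13.1% of all promoters), 12 with the bases before the start alone (2.79%), 19 with any listed start (3.99%) and 11 with TTTCGCGC and TTTGGCGC alone (1.18%). These promoter settings were chosen after seeing the data. No paired analysis was possible because there is 1 group. RMA gives no detection call, so signals near the level are not calls of absence.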
